A study of Homo sapiens with 208 samples.

Results

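Interferon-stimulated genes are the genes that cells switch on when interferon binds its receptor at the cell surface. A list of 43 of them was taken from general knowledge of the interferon response, as named members of its described antiviral families, with no measured value in the rule itself, although earlier results of these data were known when it was chosen. Of the 43, 42 had a probe on the array, out of 16961 genes with a named probe. IFI27 was not matched to a probe. Of the 42 measured members, 37 entered the tests, which ran over 13263 genes in all, and 5 (OAS2, RSAD2, TRIM22, XAF1 and EPSTI1) did not. A gene entered if the scanner software's flag put it well above background, called detected from here on, in 13 or more of 26 arrays of any 1 course. Of the 37, 27 were detected on 13 or more arrays of every course, and 10 (IFIT2, MX2, IFI44, IFI44L, HERC5, HERC6, IFITM1, SAMD9, CXCL10 and CXCL11) entered through some courses only. A member that entered only through the courses where it is high had to differ, so its values are a description.

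The arrays measured total RNA of PC9 cells, a human lung adenocarcinoma line whose epidermal growth factor receptor (EGFR) carries an activating deletion and which is sensitive to the EGFR kinase inhibitor gefitinib, and of PC9M2 cells (PC9GRM2 in the sample labels), 1 line grown from resistant PC9 clones selected with gefitinib. Both lines were starved for 48 h and then left untreated, given 0.5 uM gefitinib, given 100 ng/ml epidermal growth factor (EGF, a ligand of EGFR), or given both. Each of the 8 courses had 26 arrays, at 0, 0.5 and 1 h and then every 1 h to 24 h. Every culture, untreated ones included, had been starved, and the labels name no interferon or virus in any group. By the study's sampling scheme gefitinib was added before the first time point, so a 0 h array with gefitinib had already met the drug.

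Type I and type III interferons bind receptors that switch on JAK kinases, which phosphorylate STAT proteins. STAT2 joins another STAT and IRF9 in a complex that binds the interferon-stimulated response element in the promoters of these genes, and type II interferon acts mainly through a STAT dimer and the factor IRF1. The products block viral entry, translation and replication, or carry the signal further, and several of them restrain it again. Cancer cell lines often show a level of these genes without added interferon.

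All 5 epithelial markers (EPCAM, KRT8, KRT18, KRT19 and CDH1) were detected on all 26 arrays of every course. Of the markers of other cells, the leukocyte gene PTPRC, the fibroblast gene PDGFRB and the plasmacytoid dendritic cell gene CLEC4C were detected on at most 1, 1 and 4 of 26 arrays. The other plasmacytoid dendritic cell markers were detected more often, IL3RA on 13 to 26 and LILRA4 on 8 to 13 arrays of a course. CD14, ITGAM, PECAM1 and VWF were detected on 25 or more arrays of each course. The count of detected features ran from 24464 to 35938 per array, and the untreated PC9 arrays of 5 and 6 h stood lowest of their course, with 24464 and 26009 features against 26776 to 34909 on its other arrays. A slide carried 1 line at 1 time point with its 4 treatments, always in the same positions, so treatment and position on the slide cannot be told apart. The lines shared no slide and no scan day (8 scan days for PC9, 9 for PC9M2), so line and scan period cannot be told apart either. Saturated features numbered 183 to 1616 per PC9 array and 0 on every PC9M2 array, and no member was saturated on any array. Within a line, time and scan day also ran together.

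As a check of the drug, 10 genes that ERK signalling downstream of EGFR keeps on were examined. All 10 fell with gefitinib in PC9 (median log2 difference -3.77) and 9 of 10 in PC9M2 (median -0.998). EGF raised 5 of 10 in PC9 (median 0.141) and 0 of 10 in PC9M2 (median 0.047).

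The response element was looked for in the promoters of the members, because the groups below hold genes that carry it and yet moved in opposite directions. Of the 43 members, 34 had an entry in the RefSeq promoter table (GRCh38.p14), which gives 250 bases before to 50 bases after each gene's start. The letters GAAANNGAA, the core of the element, were found on either strand in 24 of these 34 promoters (70.6%), against 2264 of all 27305 promoters (8.29%). The letters TTCNNNGAA, a STAT site that reads the same on both strands, were found in 11 of 34 (32.4%) against 2152 of 27305 (7.88%). The motifs can overlap in part and were counted separately. The 110 bases shown for 8 members lie upstream of the start, with each GAAANNGAA match on either strand in capitals.
IFITM1, chr11:313930-314039, plus strand: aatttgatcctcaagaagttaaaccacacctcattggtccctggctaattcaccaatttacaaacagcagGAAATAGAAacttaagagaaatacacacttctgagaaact
IFI6, chr1:27672226-27672335, minus strand: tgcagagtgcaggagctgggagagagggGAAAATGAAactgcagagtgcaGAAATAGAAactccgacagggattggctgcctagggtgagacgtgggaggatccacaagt
IFIT1, chr10:89392471-89392580, plus strand: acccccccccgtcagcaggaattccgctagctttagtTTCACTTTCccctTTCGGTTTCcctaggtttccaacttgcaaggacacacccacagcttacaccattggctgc
IFIT5, chr10:89414458-89414567, plus strand: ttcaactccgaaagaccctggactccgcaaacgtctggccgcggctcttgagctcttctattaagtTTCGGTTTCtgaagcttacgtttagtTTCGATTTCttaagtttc
ISG20, chr15:88638897-88639006, plus strand: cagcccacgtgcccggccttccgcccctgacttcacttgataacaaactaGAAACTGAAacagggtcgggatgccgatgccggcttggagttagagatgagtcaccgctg
BST2, chr19:17405695-17405804, minus strand: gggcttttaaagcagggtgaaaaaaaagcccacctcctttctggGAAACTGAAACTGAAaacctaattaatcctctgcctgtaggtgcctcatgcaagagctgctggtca
IFI44, chr1:78649679-78649788, plus strand: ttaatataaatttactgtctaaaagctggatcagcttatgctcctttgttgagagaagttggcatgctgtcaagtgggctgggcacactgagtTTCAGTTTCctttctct
CXCL10, chr4:76023638-76023747, minus strand: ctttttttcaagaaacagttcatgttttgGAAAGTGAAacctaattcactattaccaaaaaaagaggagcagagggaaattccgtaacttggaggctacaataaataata
IFITM1, IFI6 and IFIT1 were higher with gefitinib in PC9, IFIT5 and ISG20 lower in both lines, BST2 and IFI44 differed most between the lines, and CXCL10 fell most with EGF. The members called higher with gefitinib in both lines held the core in 6 of 11 promoters listed (54.5%), and those called lower in both lines in 8 of 9 (88.9%). A match describes letters in this window and not a bound site.

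The first question was whether the resistant line expressed these genes at another level than its parent. In untreated cells, most members were lower in PC9M2. Of the 37 tested members, 27 were called lower in PC9M2 and 6 higher in the limma fit of the 26 differences at matched times (adjusted p below 0.05), where 37.0% of all 13263 genes were called lower and 31.1% higher. The median difference over the members was -0.79 on the log2 scale, against -0.0499 over all genes. Of the 27 members detected in every course, 20 were called lower and 6 higher. Each value is 1 array, and time points stood in for replicates, and nothing in the labels says that they came from separate cultures, so the p-values measure only the spread between time points. Neighbouring differences were also correlated (median lag-1 autocorrelation over the members 0.362 here, 0.57, 0.531 and 0.608 between the lines with gefitinib, EGF and both, 0.478 and 0.459 for gefitinib in PC9 and PC9M2, and 0.637 and 0.555 for gefitinib added to EGF). In a bulk sample, fewer cells that express a gene and less RNA per cell cannot be told apart.

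**Figure D1:**
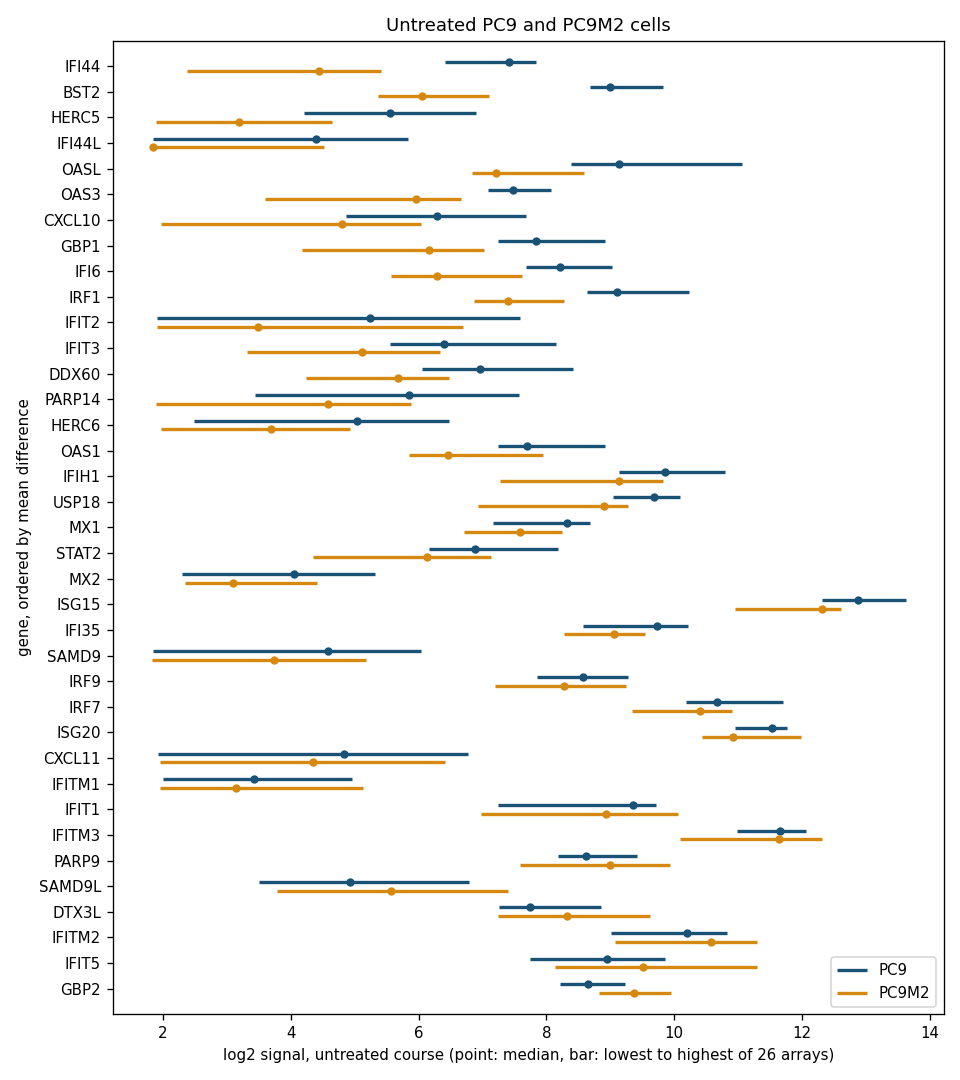
Log2 signal (x axis) of the 37 tested members (y axis) in the untreated courses of PC9 and PC9M2 cells, ordered by the mean difference, with the median as a point and the lowest to highest of 26 arrays as a bar. The bars of IFI44, BST2, OAS3, GBP1, IFI6 and IRF1 do not overlap, and those of the lowest genes in the plot, such as IFIT5 and GBP2, overlap with PC9M2 to the right.

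IFI44, a cytoplasmic protein of the antiviral response, had the most negative fitted difference of the 37, and it entered the tests only through the PC9 courses. Its log2 signal in untreated PC9 had a lowest, median and highest value of 6.42, 7.41 and 7.84, and in untreated PC9M2 of 2.37, 4.44 and 5.42. No array of one course reached the other, and the gene was detected on 11 of 26 PC9M2 arrays against 26 of 26 in PC9. The mean difference was -3.10 ± 0.17 (SE, adjusted p = 1.14e-15), in which most PC9M2 values were not above background.

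BST2 (tetherin) holds budding virus particles at the cell surface. Its signal was 8.68, 9.00 and 9.83 (lowest, median, highest) in PC9 and 5.37, 6.05 and 7.10 in PC9M2, and it was detected on every array of both. All PC9 arrays were above all PC9M2 arrays, with a mean difference of -2.95 ± 0.11 (SE, adjusted p = 1.78e-19), which is 7.75-fold. HERC5, the ligase that attaches ISG15 to newly made proteins, was at -2.32 ± 0.15 (SE, adjusted p = 4.39e-14). It was detected on 24 of 26 PC9 and 4 of 26 PC9M2 arrays and entered the tests only through the PC9 courses.

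In 6 of the 37 members the highest untreated PC9M2 array lay under the lowest PC9 array (IFI6, IFI44, OAS3, IRF1, BST2 and GBP1), which held for 2.02% of all genes tested. IRF1, the transcription factor of the type II response, was detected on every array, at 8.64, 9.1 and 10.24 in PC9 and 6.86, 7.40 and 8.27 in PC9M2. The 2 ranges were apart, and the difference was -1.79 ± 0.087 (SE, adjusted p = 5.47e-17). OAS3, a synthetase of the 2-5A molecule that turns on the RNA-cutting enzyme RNase L, was 7.09, 7.48 and 8.07 and 3.60, 5.96 and 6.67, also without overlap, and IFI6, a mitochondrial and endoplasmic reticulum protein that guards against cell death and virus replication, was 7.68, 8.22 and 9.03 and 5.57, 6.28 and 7.62.

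By role, all 4 transcription factors were lower in PC9M2 (STAT2, IRF1, IRF7 and IRF9), as were all 4 ISG15 conjugation genes, all 4 IFI genes, all 3 tested OAS genes and both RNA sensors. IRF7, which drives interferon genes themselves, differed by -0.43 ± 0.11 (SE, adjusted p = 0.00115), IRF9 by -0.44 ± 0.15 (SE, adjusted p = 0.00957) and STAT2 by -0.79 ± 0.15 (SE, adjusted p = 2.62e-05). All 3 were lower, by less than 1 on the log2 scale. ISG15, the ubiquitin-like modifier, was at 12.31, 12.87 and 13.63 in PC9 and 10.95, 12.31 and 12.61 in PC9M2. Its ranges overlapped and its difference was -0.58 ± 0.096 (SE, adjusted p = 5.09e-06). OAS1 differed by -1.25 ± 0.12 (SE, adjusted p = 2.44e-10), MX1, a dynamin-like GTPase that traps viral nucleocapsids, by -0.79 ± 0.091 (SE, adjusted p = 7.88e-09), and CXCL10, a chemokine that draws T cells, by -1.88 ± 0.17 (SE, adjusted p = 6.33e-11). Of the IFIT family, whose members bind viral RNA ends and block translation, IFIT1, IFIT2 and IFIT3 were lower, with the smallest shift in IFIT1 at -0.32 ± 0.078 (SE, adjusted p = 0.000581).

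The 6 members higher in untreated PC9M2 were GBP2, IFIT5, IFITM2, DTX3L, SAMD9L and PARP9. GBP2, a GTPase that coats pathogen vacuoles, was 8.22, 8.65 and 9.22 in PC9 and 8.82, 9.36 and 9.96 in PC9M2, which overlapped, and differed by 0.65 ± 0.11 (SE, adjusted p = 3.93e-06). IFIT5 differed by 0.54 ± 0.099 (SE, adjusted p = 2.14e-05) and IFITM2 by 0.50 ± 0.13 (SE, adjusted p = 0.00148). These gains were all smaller than 1 on the log2 scale. The other DTX3L probe pointed the other way, at -0.59, and the mean over both probes was -0.0551. Without the 5 and 6 h time points SAMD9L (0.41, adjusted p = 0.0861) and PARP9 (0.24, adjusted p = 0.0686) were not called, and CXCL11 was called lower (-0.55, adjusted p = 0.0103). SAMD9, CXCL11, IFITM1 and IFITM3 did not pass the test over all time points.

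The same comparison was made under each treatment. With gefitinib, 27 members were lower and 3 higher in PC9M2 (34.3% and 30.7% of all genes), with EGF 27 and 5 (37.0% and 32.8%), and with both 28 and 5 (36.2% and 31.5%). In all 4 treatments, 25 members were called lower and 2, DTX3L and IFIT5, higher. How many of all genes kept their direction in this way was not counted. The 25 include CXCL10, HERC5, HERC6, IFI44, IFI44L, IFIT2 and MX2, which entered the tests through some courses only, so their values are a description. Of the 27 members detected in every course, 19 were called lower and 3 higher with gefitinib, 20 and 5 with EGF, and 19 and 5 with both. Another probe of DTX3L read lower under all 4, and another of IFIT5 read -0.027 with EGF. The DTX3L call with gefitinib was lost without 5 and 6 h (0.41, adjusted p = 0.0806), as was that of PARP9 with both agents (0.27, adjusted p = 0.107). Under gefitinib the largest differences were those of IFI44 at -3.30 ± 0.19 (SE, adjusted p = 4.23e-15), BST2 at -2.93 ± 0.11 (SE, adjusted p = 2.16e-19) and IFI6 at -2.84 ± 0.14 (SE, adjusted p = 1.03e-16), and the 3 higher members were IFIT5 (0.58 ± 0.099 SE, adjusted p = 9.21e-06), SAMD9L (0.54 ± 0.17 SE, adjusted p = 0.00559) and DTX3L (0.42 ± 0.19 SE, adjusted p = 0.0498). With EGF alone the most negative were IFI44 at -2.91 ± 0.19 (SE, adjusted p = 4.68e-14), BST2 at -2.89 ± 0.12 (SE, adjusted p = 7.24e-19) and HERC5 at -2.28 ± 0.14 (SE, adjusted p = 9.67e-15), and the most positive GBP2 at 0.59 ± 0.096 (SE, adjusted p = 3.26e-06), IFITM2 at 0.55 ± 0.11 (SE, adjusted p = 3.98e-05) and IFIT5 at 0.47 ± 0.068 (SE, adjusted p = 4.81e-07). With both agents IFI44 was at -3.14 ± 0.19 (SE, adjusted p = 1.01e-14), IFI6 at -2.85 ± 0.13 (SE, adjusted p = 4.63e-18) and BST2 at -2.85 ± 0.11 (SE, adjusted p = 2.86e-19), and on the positive side SAMD9L at 0.63 ± 0.16 (SE, adjusted p = 0.000798), GBP2 at 0.62 ± 0.16 (SE, adjusted p = 0.00146) and DTX3L at 0.49 ± 0.16 (SE, adjusted p = 0.00816). The 4 comparisons use different arrays, on the same slides and scan days. Markers of other cell types also differed between the lines. The summed level (log2) of 3 endothelial markers, of which 2 of 3 were detected on 13 or more arrays in both lines, ran from 9.48 to 10.74 in untreated PC9 and from 8.18 to 8.98 in PC9M2, with CDH5 detected on 3 to 5 of 26 arrays of a course. Their part in the result was not tested. Under normexp background correction the mean over the members differed by -0.279 in untreated cells, against -0.865 as reported here.

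The second question was what blocking EGFR did to these genes. Gefitinib moved the members in both directions in both lines, and it split families. In PC9, 18 of the 37 were called higher and 11 lower, where 35.1% and 37.2% of all genes were. In PC9M2, 19 were higher and 12 lower, against 32.6% and 34.2%. The median difference over the members was 0.14 in PC9 and 0.49 in PC9M2 (all genes, -0.0213 and -0.0076). Of the members called higher, 16 were shared by the lines (16 of 18 in PC9, 16 of 19 in PC9M2). Of the lower ones, 11 were shared (11 of 11 and 11 of 12), and none was called in opposite directions. How many of all genes were shared in this way was not counted. Of the 27 members detected in every course, 14 were called higher and 8 lower in each line.

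**Figure D2:**
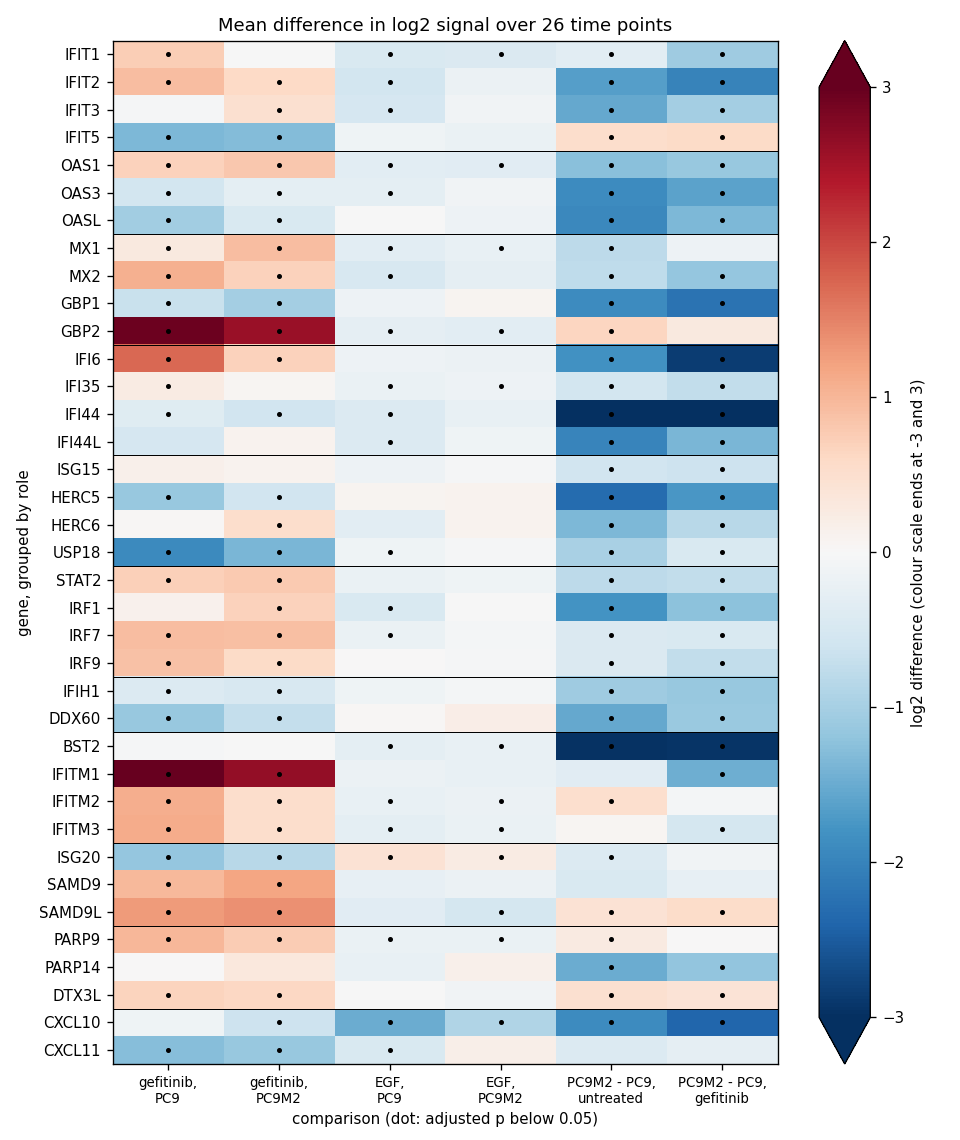
Mean log2 difference over 26 time points (colour) for the 37 tested members, grouped by role (rows), in 6 comparisons (columns), with a dot where the adjusted p was below 0.05. The gefitinib columns hold both colours within families, such as GBP2 (2.93 and 2.58) beside GBP1 (-0.68 and -1.01), the EGF columns are pale and mostly blue, and the columns of PC9M2 minus PC9 are mostly blue.

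The membrane proteins that block viral fusion, IFITM1, IFITM2 and IFITM3, rose in both lines. In PC9, IFITM1 was 2.01, 3.43 and 4.96 (lowest, median, highest) untreated and 4.67, 7.31 and 9.94 with gefitinib. It was detected on 8 of 26 untreated arrays and on all 26 treated ones, and it entered the tests only through the courses with gefitinib, so it had to differ there. It was higher at 25 of 26 time points, and the courses overlapped only through the treated array of 0 h. The mean difference was 3.78 ± 0.43 (SE, adjusted p = 8.94e-09). In PC9M2 it was 1.96, 3.15 and 5.14 untreated and 3.12, 6.10 and 7.08 with gefitinib, detected on 3 and 22 of 26 arrays, a difference of 2.64 ± 0.32 (SE, adjusted p = 4.46e-08). IFITM2 rose by 1.1 in PC9 and 0.54 in PC9M2, and IFITM3 by 1.11 and 0.53. The IFITM genes are near-identical in sequence, so a probe for one can bind the RNA of another. The fourth of this group, BST2, did not pass the test in either line (-0.047 and -0.022).

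Among the GTPases, GBP2 rose and GBP1 fell. GBP2 was 8.22, 8.65 and 9.22 untreated and 9.43, 11.75 and 13.52 with gefitinib in PC9, and every treated array lay above every untreated one. The difference was 2.93 ± 0.23 (SE, adjusted p = 1.01e-11), or 7.64-fold, and 2.58 ± 0.16 (SE, adjusted p = 1.62e-13), or 5.98-fold, in PC9M2. It was higher at all 26 time points in both lines. GBP1 was 7.25, 7.84 and 8.91 untreated and 6.39, 7.19 and 8.15 treated in PC9, overlapping, with a difference of -0.68 ± 0.091 (SE, adjusted p = 1.77e-07), and of -1.01 ± 0.16 (SE, adjusted p = 2.09e-06) in PC9M2. MX1 rose by 0.29 ± 0.085 (SE, adjusted p = 0.00301) in PC9 and 0.93 ± 0.077 (SE, adjusted p = 3e-11) in PC9M2. MX2, a GTPase against retroviruses, entered the tests only through the PC9 courses with gefitinib. It was detected on 9 of 26 untreated and 19 of 26 treated PC9 arrays, with a difference of 1.07 ± 0.24 (SE, adjusted p = 0.000193), and on 1 and 6 of 26 in PC9M2.

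IFI6 rose in both lines. Its signal in PC9 went from 7.68, 8.22 and 9.03 untreated to 8.45, 10.07 and 11.56 with gefitinib, higher at 26 of 26 times, with a difference of 1.71 ± 0.16 (SE, adjusted p = 4.1e-10), and in PC9M2 the difference was 0.70 ± 0.10 (SE, adjusted p = 6.1e-07). IFI44 fell, by 0.36 in PC9 and 0.56 in PC9M2, though it was not detected on most untreated PC9M2 arrays. The antiviral genes SAMD9L and SAMD9 rose. SAMD9L differed by 1.28 ± 0.16 (SE, adjusted p = 4.72e-08) in PC9 and 1.38 ± 0.22 (SE, adjusted p = 2.91e-06) in PC9M2, and SAMD9 by 0.98 ± 0.24 (SE, adjusted p = 0.00067) and 1.18 ± 0.19 (SE, adjusted p = 3.14e-06). Of the PARP9 and DTX3L pair, which work as 1 ubiquitin ligase, PARP9 rose by 1.01 and 0.76 and DTX3L by 0.67 and 0.61, whereas PARP14 was not called (0.014 and 0.32).

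The signalling factors rose, 3 of 4 in PC9 and 4 of 4 in PC9M2. IRF7 was 10.19, 10.67 and 11.70 untreated and 10.95, 11.55 and 12.60 with gefitinib in PC9, with overlapping ranges but a higher value at all 26 matched time points, and differed by 0.94 ± 0.08 (SE, adjusted p = 3.76e-11). In PC9M2 it was also higher at all 26 and differed by 0.90 ± 0.076 (SE, adjusted p = 3.79e-11). STAT2 differed by 0.72 ± 0.094 (SE, adjusted p = 1.08e-07) and 0.80 ± 0.09 (SE, adjusted p = 9.72e-09) (25 pairs in PC9, 1 spot being an outlier), and IRF9 by 0.87 ± 0.13 (SE, adjusted p = 1.2e-06) and 0.57 ± 0.053 (SE, adjusted p = 3.02e-10). IRF1 rose in PC9M2 (0.68 ± 0.097 SE, adjusted p = 5.03e-07) and was at 0.13 ± 0.12 (SE, adjusted p = 0.334) in PC9.

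USP18, the protease that removes ISG15 and blocks the type I receptor, fell most. In PC9 it was 9.04, 9.68 and 10.09 untreated and 6.50, 7.61 and 8.96 with gefitinib. Every treated array lay under every untreated one, and the difference was -1.91 ± 0.17 (SE, adjusted p = 7.17e-11), or 3.75-fold. In PC9M2 it was 6.93, 8.90 and 9.28 untreated and 6.86, 7.26 and 7.71 treated, with overlap, and differed by -1.37 ± 0.10 (SE, adjusted p = 6.23e-12). ISG20, an RNA exonuclease, was 10.95, 11.53 and 11.77 untreated and 8.99, 10.31 and 11.25 treated in PC9 and differed by -1.16 ± 0.15 (SE, adjusted p = 1.07e-07), and by -0.84 ± 0.084 (SE, adjusted p = 8.98e-10) in PC9M2. The substrate of USP18, ISG15, was at 0.14 ± 0.067 (SE, adjusted p = 0.0558) in PC9 and 0.11 ± 0.066 (SE, adjusted p = 0.151) in PC9M2, past the threshold in neither, and in PC9 it was called without 5 and 6 h (0.16, adjusted p = 0.0401), as was IFI44L (-0.77, adjusted p = 0.000835). HERC5 fell by 1.13 and 0.57, though it was not detected on most untreated PC9M2 arrays.

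The IFIT and OAS families were split. IFIT5 fell in both lines, with differences of -1.35 ± 0.11 (SE, adjusted p = 1.15e-11) in PC9 and -1.31 ± 0.094 (SE, adjusted p = 1.82e-12) in PC9M2, and was lower at all 26 time points in both. IFIT1 rose in PC9 at all 26 time points, from 7.25, 9.36 and 9.72 to 7.75, 10.02 and 10.63 with a difference of 0.74 ± 0.052 (SE, adjusted p = 1.07e-12), and was at -0.0054 ± 0.071 (SE, adjusted p = 0.953) in PC9M2. That PC9M2 mean covers a difference that changed over time, as given below. IFIT2 rose by 0.94 and 0.59, where the PC9M2 value was -0.075 over time points 3 h apart. OAS1 rose in both lines, by 0.69 ± 0.094 (SE, adjusted p = 2.1e-07) and 0.81 ± 0.085 (SE, adjusted p = 2.66e-09), whereas OAS3 (-0.56 and -0.29) and OASL (-1.05 and -0.46), a relative that aids the RNA sensor RIG-I, fell. The sensors also fell: DDX60, a helicase, by 1.14 and 0.72, and IFIH1 (MDA5), which detects long double-stranded RNA, by 0.40 and 0.48. CXCL11, a chemokine of the same receptor as CXCL10, differed by -1.28 ± 0.35 (SE, adjusted p = 0.00198) in PC9 and -1.13 ± 0.30 (SE, adjusted p = 0.00133) in PC9M2 but was detected on only 9 of 26 treated and 21 of 26 untreated PC9 arrays.

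Within the 8 scan days of PC9, 13 of the 18 risen members were higher on every day and 6 of the 11 fallen ones lower on every day. In PC9M2, 8 of 19 and 4 of 12 kept their direction on all 9 days. IFITM1 differed by between 0.30 and 6.74 on single scan days of PC9, GBP2 by between 0.82 and 4.27, and USP18 by between -2.79 and -0.30.

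**Figure D3:**
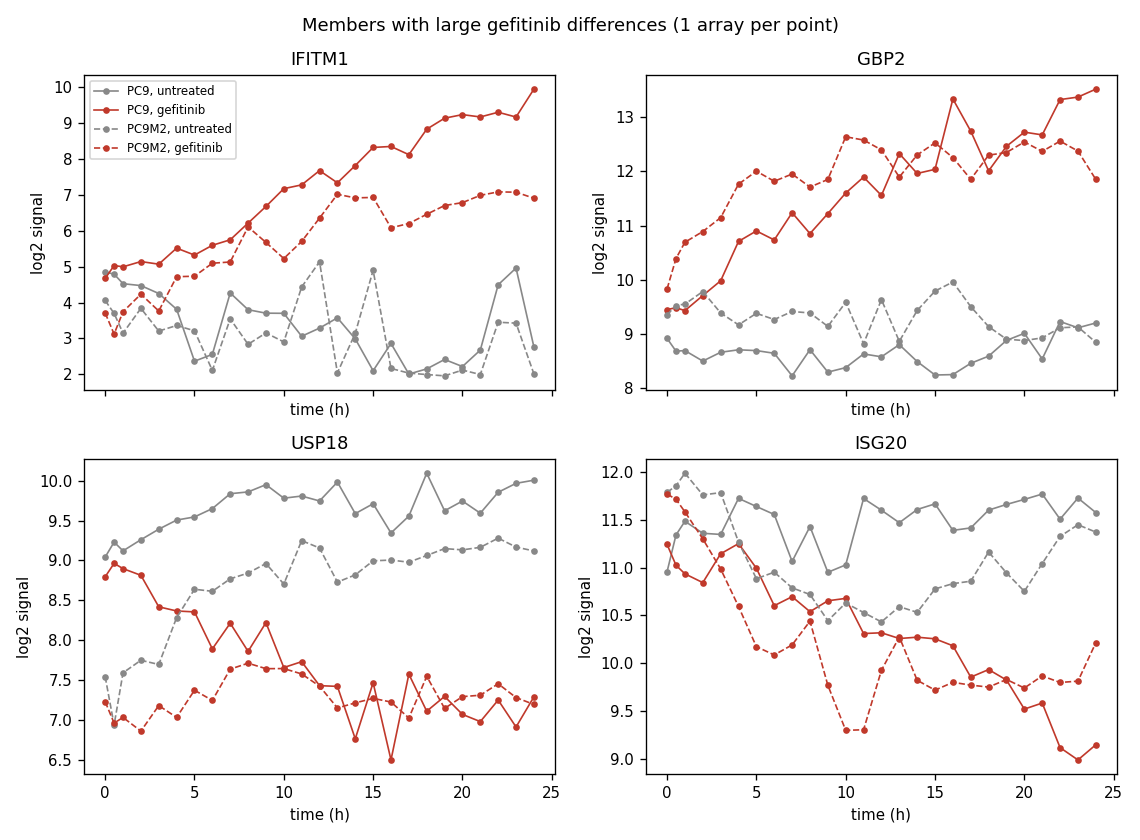
Log2 signal (y axis) of IFITM1, GBP2, USP18 and ISG20 against time in hours (x axis) in untreated and gefitinib-treated PC9 (solid lines) and PC9M2 cells (dashed lines), 1 array per point. In PC9, IFITM1 went from 4.67 at 0 h to 9.94 at 24 h with gefitinib and from 4.85 to 2.76 without, and USP18 from 8.79 to 7.29 with gefitinib and from 9.04 to 10.01 without.

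The gefitinib difference changed with time for many members, and its mean over all 42 measured members was 0.29 over the first 13 time points and 0.17 over the last 13 in PC9, and 0.22 and 0.19 in PC9M2. A spline over the 26 differences was called for 27 of the 37 members in PC9 and 28 in PC9M2, where 52.3% and 45.5% of all genes were called. IFITM1 with gefitinib in PC9 read 4.67 at 0 h, 5.59 at 6 h, 7.68 at 12 h and 9.94 at 24 h, and untreated 4.85, 2.56, 3.29 and 2.76. Its difference averaged 1.87 over the first 13 time points (0 to 11 h) and 5.68 over the last 13 (12 to 24 h). GBP2 grew from 1.96 to 3.90, IFI6 from 1.05 to 2.37 and USP18 from -1.22 to -2.60. The means of the 2 parts lay closer together for IRF7, IFIT1 and STAT2 in PC9, at 0.88 and 1.00, 0.66 and 0.82, and 0.73 and 0.72. The spline was still called there for IRF7 (adjusted p = 0.00467), and not for IFIT1 (adjusted p = 0.366) or STAT2 (adjusted p = 0.492).

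CXCL10 had 2 phases in PC9 that cancelled in the mean of the whole course (-0.12 ± 0.24 SE, adjusted p = 0.656). With gefitinib it stayed high, at 7.09 at 1 h, 6.77 at 5 h and 7.07 at 9 h, against 5.99, 4.86 and 5.81 untreated. Later the order turned, with 5.83 at 16 h and 4.95 at 23 h against 7.40 and 7.68 untreated. The difference was 0.91 over the first 13 time points (adjusted p = 0.000204 in limma) and -1.16 over the last 13, and the spline was called (adjusted p = 3.32e-07). BST2 turned in the same way, from 0.25 to -0.34, and PARP14 from 0.46 to -0.43. Over the first 13 time points IFI44 (0.18), OAS3 (0.036), CXCL11 (0.054) and IFI35 (-0.069) in PC9, and HERC5 (0.17), IFIH1 (0.11) and CXCL10 (0.030) in PC9M2, had the opposite sign to their mean over the whole course. In PC9M2, CXCL10 went from 0.03 to -1.26 and was detected on 16 of 26 untreated arrays. The low untreated PC9 arrays of 5 and 6 h lie in the early phase, and their part in it was not tested.

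**Figure D4:**
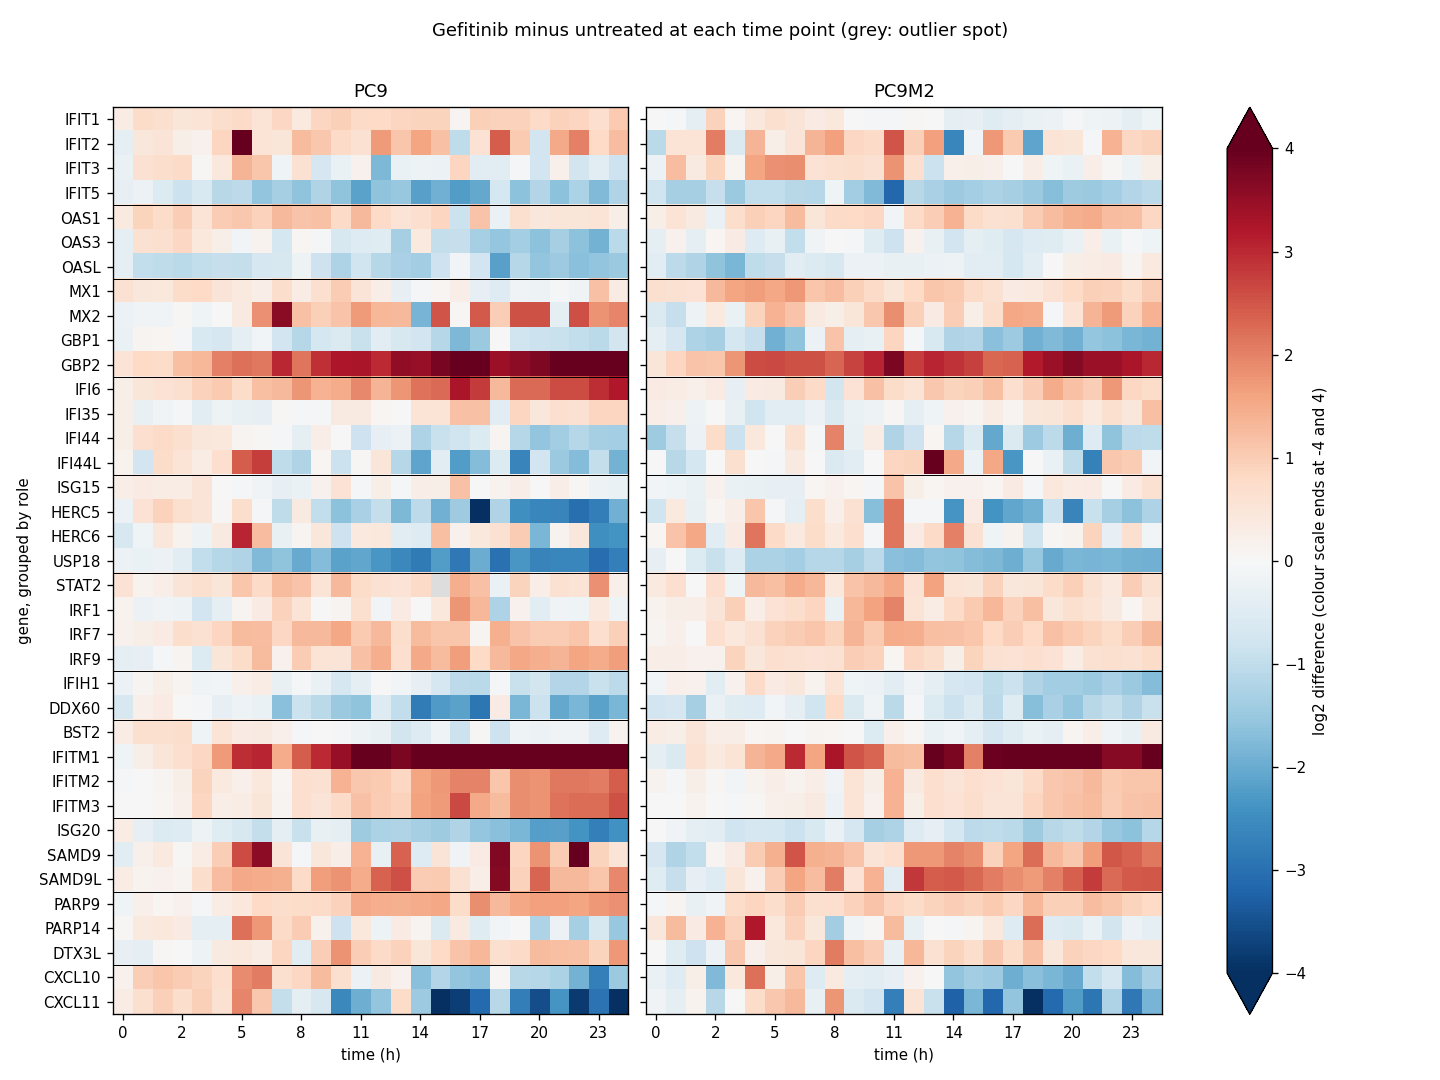
Gefitinib minus untreated log2 signal at each time point (colour) for the 37 tested members, grouped by role (rows), against time in hours (columns), in PC9 (left) and PC9M2 (right). IFITM1 and GBP2 darken to red and USP18 to blue along the PC9 course, and CXCL10 turns from red to blue (mean 0.91 and -1.16 over the first and last 13 time points).

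Without treatment, the spline over the 24 h was called for about as large a share of the members as of all genes, and time and scan day ran together. It was called for 27 of 37 in PC9 and 28 of 37 in PC9M2, where 66.3% and 67.2% of all genes were called. In untreated PC9, CXCL11 read 3.33 at 1 h and 6.77 at 23 h, and its fitted range was 3.45. IFIT1 read 8.14 at 0 h and 9.5 at 24 h in PC9, and 7.38 and 8.75 in PC9M2. Both lines therefore ended the course with more IFIT1 signal than they began with.

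The difference between the lines in the gefitinib effect was tested itself. It was called for 6 members in the direction of a more negative effect in PC9M2 and for 6 in the other, shares close to the 16.9% and 17.0% of all genes. IFITM1 rose less in PC9M2, with a difference of -1.14 ± 0.24 (SE, adjusted p = 0.0004), as did IFI6 (-1.01 ± 0.14 SE, adjusted p = 2.85e-06), IFITM3 (-0.58) and IFITM2 (-0.56). The IFIT1 effect was 0.74 in PC9 and -0.0054 in PC9M2, a difference of -0.74 ± 0.094 (SE, adjusted p = 5.92e-07), lower at 24 of 26 time points. The PC9M2 effect of -0.0054 is a mean over a difference that changed over time (spline, adjusted p = 0.000732, fitted range 0.80). MX1 rose more in PC9M2, by 0.64 ± 0.099 (SE, adjusted p = 1.2e-05), and so did IRF1 (0.56 ± 0.14 SE, adjusted p = 0.00231) and IFIT3 (0.51). OASL (0.59 ± 0.16 SE, adjusted p = 0.00515), USP18 and ISG20 fell less in PC9M2, the last 2 by 0.53 and 0.32, and the CXCL10 effect was more negative (-0.49 ± 0.18 SE, adjusted p = 0.0357), a call lost without the 5 and 6 h time points (-0.42, adjusted p = 0.0829). GBP2, IRF7, IRF9, STAT2, OAS1 and ISG15 were not called, at -0.35, -0.032, -0.30, 0.084, 0.12 and -0.035.

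The third question was what adding EGF did. EGF alone lowered many members by a small amount. In PC9, 20 of 37 were called lower and 1 higher, where 14.3% of all genes were lower and 11.3% higher, with a median over the members of -0.23 against -0.0126 over all genes. In PC9M2, 11 were called lower and 1 higher (5.04% and 4.09% of all genes), with a median of -0.14 against 0.0004. Of the 27 members detected in every course, 14 were called lower and 1 higher in PC9, and 10 and 1 in PC9M2. The EGF and gefitinib comparisons share the untreated arrays of each line. Of the lower calls, 10 were shared by both lines (10 of 20 in PC9 and 10 of 11 in PC9M2), and the shared calls among all genes were not counted. Without the 5 and 6 h time points BST2 (-0.23, adjusted p = 0.0548), GBP2 (-0.30, adjusted p = 0.0779) and IFITM2 (-0.18, adjusted p = 0.0792) lost the call in PC9M2, which left 8, and HERC6 (-0.40, adjusted p = 0.0385) and PARP14 (-0.25, adjusted p = 0.0487) gained it in PC9.

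IFIT2, named below, and CXCL10 entered the tests through some courses only, so their values are a description. CXCL10 fell most in both lines. In PC9 it was 4.86, 6.29 and 7.68 untreated and 3.06, 4.71 and 6.71 with EGF, lower at 24 of 26 time points with overlapping ranges, and differed by -1.49 ± 0.20 (SE, adjusted p = 2.32e-06), or 2.82-fold. It was lower on average on every scan day, with daily means between -2.53 and -0.011. In PC9M2 it was 1.97, 4.80 and 6.03 and 1.91, 3.66 and 4.88, differed by -0.91 ± 0.14 (SE, adjusted p = 8.31e-05), and was detected on 7 of 26 arrays with EGF. The next in PC9 were IFIT2 (-0.55 ± 0.17 SE, adjusted p = 0.0165) and IFIT3 (-0.50 ± 0.083 SE, adjusted p = 4.51e-05), and in PC9M2 SAMD9L (-0.52 ± 0.12 SE, adjusted p = 0.00588) and IFIT1 (-0.43 ± 0.076 SE, adjusted p = 0.000396).

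IFIT1 fell in PC9 as well, at -0.47 ± 0.063 (SE, adjusted p = 2.67e-06), lower at 25 of 26 time points. OAS1 fell in both lines, at -0.33 ± 0.053 (SE, adjusted p = 3.28e-05) in PC9 and -0.34 ± 0.066 (SE, adjusted p = 0.00114) in PC9M2, and so did MX1, at -0.33 ± 0.075 (SE, adjusted p = 0.0018) and -0.22 ± 0.054 (SE, adjusted p = 0.00822). IRF1 fell in PC9 (-0.47 ± 0.073 SE, adjusted p = 2.06e-05) and was at -0.0006 ± 0.057 (SE, adjusted p = 0.996) in PC9M2. IRF7 fell in PC9, at -0.19 ± 0.054 (SE, adjusted p = 0.00849), and was at -0.067 ± 0.044 (SE, adjusted p = 0.398) in PC9M2. IRF9 (0.011 ± 0.068 SE, adjusted p = 0.928 and -0.029 ± 0.065 SE, adjusted p = 0.842) and STAT2 (-0.20 ± 0.086 SE, adjusted p = 0.0907 and -0.13 ± 0.073 SE, adjusted p = 0.327) passed in neither line. ISG15 was at -0.16 ± 0.061 (SE, adjusted p = 0.0583) in PC9 and -0.037 ± 0.05 (SE, adjusted p = 0.726) in PC9M2, past the threshold in neither. ISG20 was the 1 member that rose, by 0.43 ± 0.059 (SE, adjusted p = 4.33e-06) in PC9 and 0.25 ± 0.041 (SE, adjusted p = 0.000151) in PC9M2.

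The EGF effect itself differed between the lines for 1 of the 37 members, IRF1 (0.47 ± 0.081 SE, adjusted p = 0.00238), where 1.33% of all genes were called. The lower calls with EGF rest on matching the arrays of a slide. Without that pairing limma called 5 members lower in PC9 and 0 in PC9M2 (4 at an unadjusted p below 0.05), and with only the time points 3 h apart 6 and 0 (10 at an unadjusted p below 0.05).

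**Figure D5:**
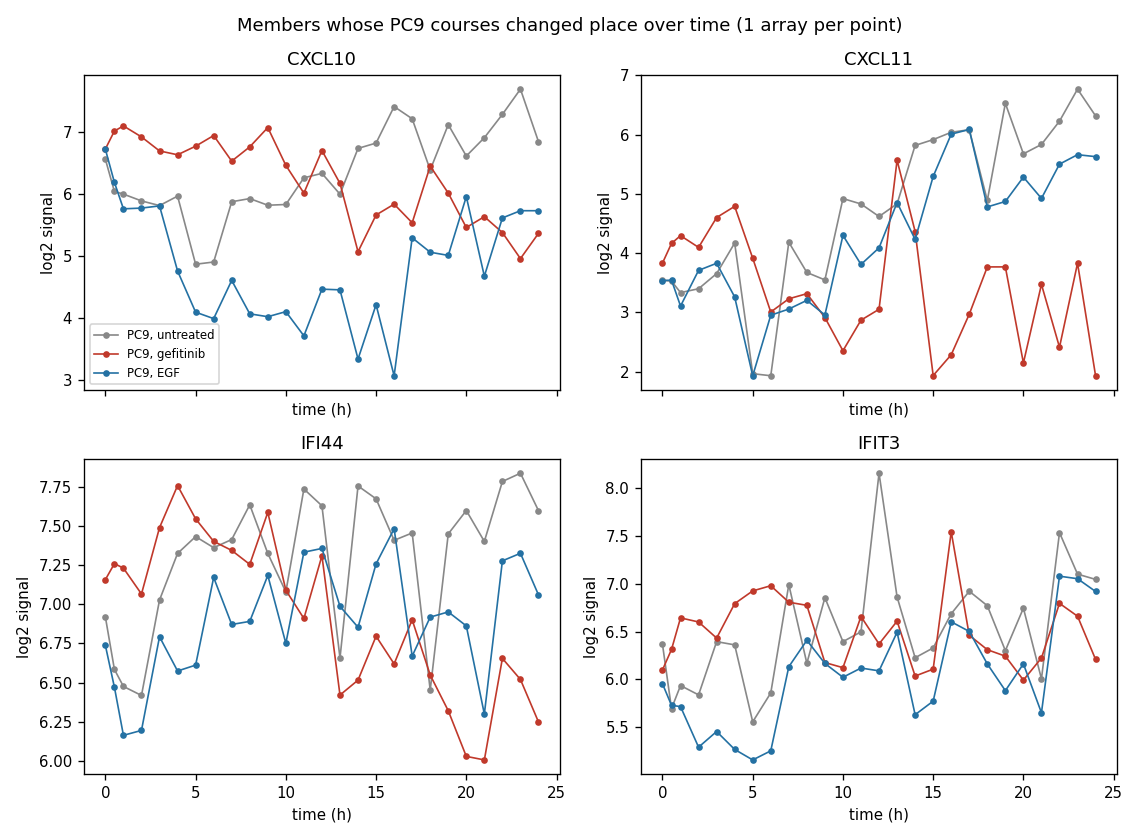
Log2 signal (y axis) of CXCL10, CXCL11, IFI44 and IFIT3 against time in hours (x axis) in PC9 cells left untreated, with gefitinib or with EGF, 1 array per point. CXCL10 with EGF lies under the untreated course at 24 of 26 time points, and the gefitinib course of CXCL10, CXCL11 and IFI44 starts above the untreated one and ends below it.

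When gefitinib was present, EGF changed little. Of the 37 members 0 passed limma in PC9 (4 at an unadjusted p below 0.05, and 0 by the methods' t-test) and 3 did in PC9M2, where 0.0452% and 3.21% of all genes were called. The 3 were IRF1 (0.27 ± 0.072 SE, adjusted p = 0.0321), IRF9 (0.16 ± 0.034 SE, adjusted p = 0.00874) and OAS1 (-0.17 ± 0.048 SE, adjusted p = 0.0434). The OAS1 call was lost without 5 and 6 h (-0.16, adjusted p = 0.0804), and all 3 without the pairing or with only the time points 3 h apart (2 and 5 members at an unadjusted p below 0.05). CXCL10 was at 0.11 ± 0.096 (SE, adjusted p = 0.618) in PC9 and -0.015 ± 0.11 (SE, adjusted p = 0.96) in PC9M2.

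Conversely, adding gefitinib to EGF moved most members, as it did most of all genes tested. Against EGF alone, both agents raised 24 and lowered 10 in PC9 (39.0% and 39.9% of all genes) and raised 21 and lowered 9 in PC9M2 (36.7% and 37.8%), where IFI35 was called as well without 5 and 6 h (0.23, adjusted p = 0.021). The largest in PC9 were IFITM1 (3.92 ± 0.49 SE, adjusted p = 3.48e-08), GBP2 (2.93 ± 0.23 SE, adjusted p = 6.55e-12) and IFI6 (1.88 ± 0.21 SE, adjusted p = 3.65e-09), and USP18 (-1.80 ± 0.15 SE, adjusted p = 1.92e-11), ISG20 (-1.50 ± 0.17 SE, adjusted p = 5.68e-09) and IFIT5 (-1.22 ± 0.061 SE, adjusted p = 6.02e-16). In PC9M2 they were GBP2 (2.96 ± 0.21 SE, adjusted p = 6.99e-12), IFITM1 (2.91 ± 0.37 SE, adjusted p = 5.47e-08) and SAMD9L (1.87 ± 0.25 SE, adjusted p = 1.02e-07), and CXCL11 (-1.55 ± 0.25 SE, adjusted p = 2.33e-06), USP18 (-1.36 ± 0.10 SE, adjusted p = 1.04e-11) and IFIT5 (-1.23 ± 0.10 SE, adjusted p = 5.18e-11). IFITM1 entered the tests only through courses with gefitinib, so it had to differ here too and its values are a description. CXCL11 also entered through some courses only. Of the 27 members detected in every course, both agents raised 18 and lowered 8 in PC9, and raised 17 and lowered 8 in PC9M2. The median difference over the members was 0.60 in PC9 and 0.49 in PC9M2, against -0.0111 and -0.0153 over all genes.

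Other genes of the pathway were counted from lists of 48 genes, of which 33 were tested. Of these, gefitinib raised 11 and lowered 14 in PC9, and raised 13 and lowered 8 in PC9M2, where 35.1% and 37.2%, and 32.6% and 34.2%, of all genes rose and fell. The interferon genes themselves were near background: of 9 listed ligands only IFNE and IFNL2 passed the filter, and IFNB1, the first interferon made after infection, was detected on at most 2 of 26 arrays of any course. IFNE, an epithelial type I interferon, was higher in untreated PC9M2 (5.18, 6.02 and 7.57) than in PC9 (1.92, 4.55 and 5.37), by 1.82 ± 0.17 (SE, adjusted p = 1.43e-10). Its lowest PC9 value lay under the lowest detected signal of any untreated PC9 array (2.55). The PC9 course thus held signal not above background, and the size of the difference is a description. Of 6 receptor chains, 2 rose and 2 fell with gefitinib in PC9, and 2 rose in PC9M2. Of the 4 receptor-associated kinases and signal transducers, 2 rose and 1 fell in PC9, and 3 rose and 1 fell in PC9M2.

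The largest pathway differences with gefitinib were those of CIITA, SOCS3 and CGAS. CIITA, the master activator of MHC class II genes, was 2.02, 3.03 and 4.29 untreated and 3.84, 7.70 and 9.26 with gefitinib in PC9. It was detected on 5 and 26 of 26 arrays there, and differed by 4.12 ± 0.35 (SE, adjusted p = 3.61e-11). CIITA entered the tests only through courses with gefitinib, so it had to differ there and its values are a description. In PC9M2 it was detected on no untreated array and on 21 treated ones, at least 2.69-fold higher, the mean of the treated arrays being set against the higher of the lowest detected signal and its own value on each untreated array (adjusted p = 2.67e-10). SOCS3, a feedback inhibitor of JAK kinases, fell in both lines, at -2.41 ± 0.11 (SE, adjusted p = 7.54e-17) in PC9 and -2.16 ± 0.083 (SE, adjusted p = 5.61e-18) in PC9M2, and so did CGAS, the sensor of cytosolic DNA, at -2.15 ± 0.16 (SE, adjusted p = 4.63e-12) and -1.90 ± 0.11 (SE, adjusted p = 3.6e-14). Its partner STING1 rose, by 1.04 and 1.11. Between the untreated lines 20 of the 33 were lower and 4 higher in PC9M2 (37.0% and 31.1% of all genes), with GBP5 (-2.50), IFNE (1.82) and ICAM1 (-1.78) the largest. EGF lowered 9 and raised 3 in PC9 (14.3% and 11.3% of all genes) and lowered 5 and raised 3 in PC9M2 (5.04% and 4.09%).

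As a single summary, the mean log2 signal over the 42 measured members had a lowest, median and highest value of 6.55, 7.15 and 7.54 in untreated PC9, 7.12, 7.38 and 7.63 with gefitinib, and 6.58, 6.95 and 7.21 with EGF. In PC9M2 the values were 5.82, 6.41 and 6.68 untreated, 5.89, 6.61 and 6.84 with gefitinib, and 5.72, 6.26 and 6.53 with EGF. At matched times the mean was lower in PC9M2 at 26 of 26 untreated time points (difference -0.87, SD 0.20), higher with gefitinib at 25 of 26 in PC9 and 23 of 26 in PC9M2 (0.23, SD 0.18, and 0.20, SD 0.18), and lower with EGF at 24 of 26 and 22 of 26 (-0.22, SD 0.14, and -0.11, SD 0.11). The median over members in place of the mean gave -0.137 for gefitinib in PC9, the opposite sign.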

How the data were processed

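Total RNA of 208 samples was hybridised to 1-colour Agilent arrays, 26 per line and treatment. Per the file headers, Feature Extraction 10.5.1.1 produced the deposited processed signal (intensity, linear scale) with annotation of build hg18, and the study's methods name another version. The authors also deposited a value table of all arrays (intensity), whose columns correlated at 0.9999 or more with the values used here and which served as an alternative.

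Outlier spots (0.263%) were left out, arrays were quantile normalized, a floor of 1 was set before log2, and replicate spots were averaged per probe. On the array 41000 probes were read: 24794 were named through RefSeq accessions (GRCh38.p14) and 16206 were unnamed. The probe of largest variance stood for a gene. Genes well above background on at least 13 of 26 arrays of a course were tested (13263, with 3698 left out).

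Differences at matched time points were fitted with limma 3.58.1 (R 4.3.3, two-sided, Benjamini-Hochberg adjusted over all genes tested, threshold 0.05), and change over time by a natural spline with 4 degrees of freedom. The pairing comes from the labels and the slides: the 52 slides each carried 1 line at 1 time point with its 4 treatments. Lines were matched by time only. No level of one probe was set against that of another. Promoters and figures were handled in Python 3.11.15 (pandas 2.3.3, numpy 2.4.6, matplotlib 3.10.9). The fits were tested on simulated data with independent noise on each array. That test does not cover the correlation between neighbouring time points seen in these courses.

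The members and lists were chosen with earlier results of these data known. In each comparison, full statistics are given for the 3 members with the largest positive and the 3 with the largest negative difference past the threshold, and for CXCL10, IFIT1, ISG15, MX1, OAS1, IRF1, IRF7, IRF9 and STAT2 where a comparison is discussed in depth. Other genes named are the remaining members of a role, and pathway genes beyond the 3 largest were chosen after their values were seen. Alternatives were normexp background correction (offset 50, on the median signals, since no mean signal was used here), scaling to the 75th percentile, a floor of 16, other probe rules and filters, no pairing, scan day as a random block (statmod 1.5.0), parts of the time course, the methods' t-test and, chosen after seeing the data, leaving out 5 and 6 h. The leukocyte marker list as a whole is not reported here. The number of arrays limits the precision.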

Additional observations from a re-analysis of the deposited data

Results flagged for a closer look

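The gefitinib effect differed between the lines in a test of the difference itself for 12 members (limma, adjusted p below 0.05, 26 time points, PC9M2 minus PC9 on the log2 scale), 6 in each direction, where 16.9% of all genes were lower and 17.0% higher. It was lower in PC9M2 for IFITM1 (-1.14), IFI6 (-1.01), IFIT1 (-0.74), IFITM3 (-0.58), IFITM2 (-0.56) and CXCL10 (-0.49). It was higher for MX1 (0.64), OASL (0.59), IRF1 (0.56), USP18 (0.53), IFIT3 (0.51) and ISG20 (0.32). The EGF effect differed for IRF1 (0.47), higher in PC9M2 at 23 of 26 time points. Line and scan period cannot be told apart in these values.

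Without the 5 and 6 h time points the CXCL10 call was lost (adjusted p = 0.0829) and GBP2 (-0.42), HERC5 (0.65), HERC6 (0.68), IFI44L (0.88) and PARP9 (-0.29) were called.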

How the results depend on the processing

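Over members, comparisons and alternatives, 7593 of 8081 values kept their side of the threshold, with the same sign wherever either value was called. Another 322 lost a call, 125 gained one and 41 turned sign where either value was called. A change of sign between values called in neither setting was not counted. The cause was not tested unless given.

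Without the replicate block (no pairing by slide), 0 members were called for EGF added to gefitinib in PC9M2 and 5 lower for EGF in PC9, 0 higher and 0 lower for EGF in PC9M2, and 2 higher in PC9M2 with both agents. With scan day as a random block, members higher in PC9M2 were 3 untreated, 1 with gefitinib, 2 with EGF and 0 with both, and 3 had a higher gefitinib effect. With time points 3 h apart these were 2, 1, 2, 2 and 3, EGF lowered 6 in PC9 and 0 in PC9M2 (0 higher), gefitinib lowered 6 in PC9M2, EGF added to gefitinib called 0 in PC9M2, the EGF effect differed for 0, and IFI44L (EGF, PC9, 0.0022) and IFIT2 (gefitinib, PC9M2, -0.0754) turned.

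A log2 difference of at least 1 left, as higher and lower, 8 and 7 for gefitinib in PC9, 4 and 4 in PC9M2, 0 and 1 for EGF in PC9, 0 and 0 in PC9M2, 14 and 5 for both agents against EGF in PC9, 8 and 4 in PC9M2, 0 and 17 between untreated lines, 0 and 16 with EGF, 0 and 15 with both, 0 higher with gefitinib, 0 and 2 for the difference in the gefitinib effect, 0 for that in the EGF effect and 0 for EGF added to gefitinib in PC9M2. The methods' t-test between lines is one-sided for higher in PC9M2, so its 0 members lower in each of the 4 treatments follow from its construction.

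In the first 13 time points, gefitinib lowered 6 in PC9 and 6 in PC9M2, EGF raised 2 and lowered 12 in PC9 and raised 0 and lowered 1 in PC9M2, both agents against EGF lowered 6 in PC9, EGF added to gefitinib called 0 in PC9M2, 3 were higher in PC9M2 with EGF, and 2 had a higher and 3 a lower gefitinib effect and 0 a different EGF effect. There the gefitinib values turned for CXCL10 (0.91), CXCL11 (0.054), BST2 (0.25), IFI35 (-0.069), IFI44 (0.18) and OAS3 (0.036) in PC9, CXCL10 (0.030), HERC5 (0.17) and IFIH1 (0.11) in PC9M2, those of both agents against EGF for CXCL11 (0.51), HERC5 (0.054), IFIH1 (0.021) and OAS3 (0.24) in PC9 and HERC5 (0.69) and IFIH1 (0.30) in PC9M2, EGF in PC9 for OASL (0.24) and the gefitinib effect difference for ISG20 (-0.11). In the last 13, EGF added to gefitinib called 5 in PC9M2, EGF raised 2 in PC9M2, 3 were higher in PC9M2 untreated, 3 with EGF and 2 with both, 10 had a lower gefitinib effect and 0 a different EGF effect. IFI44 (-0.38) and IFI44L (-0.75) turned for both agents against EGF in PC9, USP18 between lines with gefitinib (0.11) and both (0.034), and PARP14 with gefitinib in PC9 (-0.43).

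Under normexp the mean over members between lines was -0.279 untreated, -0.326 with gefitinib, -0.239 with EGF and -0.292 with both, and the EGF effect differed for 4. SAMD9 between lines turned to 0.39 with gefitinib, 0.14 with EGF and 0.46 with both, and HERC6 with EGF in PC9M2 to -0.11. With a floor of 16, and with the probe of highest mean, SAMD9 turned to 0.29 untreated, 0.41 with gefitinib, 0.26 with EGF and 0.53 with both. With the probe of highest mean HERC6 with EGF in PC9M2 was -0.14, and with the floor 2 differed in the EGF effect. With the mean of all probes 2 did, and DTX3L between lines turned to -0.055 untreated, -0.089 with gefitinib, -0.23 with EGF and -0.012 with both, since its other probe has the opposite sign. The median over members in place of their mean gave -0.14 for gefitinib in PC9, 0.14 for both agents against EGF in PC9, -1.56 between untreated lines, -1.39 with EGF and 0.51 for the gefitinib effect difference.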

Other observations

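The 5 genes outside the list whose log2 signal, as deviation from its own course mean, was most alike to the mean of the members over all arrays were LMBRD1 (Pearson r = 0.865), TRANK1 (0.85), MMP7 (0.846), TMEM45A (0.836) and SKAP2 (0.828). Members with a value on every array reached at most 0.769 (SAMD9L). The r of ISG20 (-0.559), IFI35 (-0.436), OASL (-0.332) and IFITM2 (-0.1) was negative. The arrays share slides and scan days, and these values are a description. MMP7 is a matrix metalloproteinase and SKAP2 an adaptor protein of adhesion signalling.

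Of the 5 members that did not pass the filter, OAS2 was well above background on 3 of 26 untreated PC9 arrays and 4 of 26 untreated PC9M2 arrays, XAF1 on 10 and 6, and RSAD2, which makes an antiviral nucleotide, on 0 and 0. TRIM22 and EPSTI1 were so on 0 and 0 untreated PC9 arrays.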
